A study of Sus scrofa with 6 samples.

Results

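The proteasome is the barrel-shaped protease that degrades proteins tagged with ubiquitin. Its subunit genes were described in longissimus dorsi, a large muscle of the loin, from Wei and Yorkshire pigs. The members are the rows of the deposited gene table whose symbol starts with PSM followed by a letter from A to G and a digit. The inducible subunits PSMB8 and PSMB9 and the activator subunits PSME1 and PSME2, which belong to the immunoproteasome, were left out. This gave 33 member rows of 25322 in the table, with 32 distinct symbols. RNA was sequenced from 3 Wei libraries and 3 Yorkshire libraries. The Wei pigs had free access to commercial feed and water and were slaughtered at 90 kg. The Yorkshire pigs are described as kept in a similar way, with no weight given. No treatment or altered allele is given for either breed, and neither are the age or sex of the animals. The column names use the code YH for libraries labelled Wei and LWH for those labelled Yorkshire, which the labels do not explain. All directions follow the breed label.

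The complete particle has a core and a cap. The core is a stack of rings: the outer alpha rings gate the entrance, and the inner beta rings carry the proteolytic sites. The cap has a base, with a ring of ATPases that unfold and thread the substrate, and a lid that removes the ubiquitin chain. Dedicated chaperones assemble these parts, and other caps or inhibitors can replace the regular cap. In skeletal muscle this route removes contractile protein, and its subunits are known to be induced together in wasting. The transcription factor NFE2L1 is known, mainly from mouse and human cells, to raise proteasome subunit genes together.

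Total counts per library ranged from 15285197 to 22570075 in Wei and from 17876646 to 27096747 in Yorkshire. The skeletal muscle markers were present in each library, and ACTA1, the skeletal actin, took 3.77%, 6.52% and 7.97% of the counts in Wei replicates 1, 2 and 3, against 8.76%, 7.88% and 8.29% in Yorkshire replicates 1, 2 and 3. Wei replicate 2 held 6901 counts of Y-linked genes, and no other library held more than 14. Yorkshire replicate 3 stood apart in immune markers: the 6 tested lymphocyte markers summed to 7.28 to 7.87 CPM (read counts scaled to a common library size after TMM) in Wei, against 41.9 CPM in Yorkshire replicate 3 and 10.6 and 12.7 CPM in Yorkshire replicates 1 and 2. The 9 tested macrophage markers summed to 45.7 to 53.2 CPM in Wei, against 174 CPM in Yorkshire replicate 3 and 42.6 and 51.5 CPM in the other Yorkshire libraries. The 7 tested skeletal muscle markers summed to 82133, 120190 and 154857 CPM in Wei replicates 1, 2 and 3. In Yorkshire replicates 1, 2 and 3 the sums were 154002, 139882 and 133243 CPM. CKM, MYLPF and TNNC2 were, like ACTA1, lowest in Wei replicate 1, while DES, MYOT and TTN were not. In whole muscle, fewer cells of a type and less RNA per cell cannot be told apart. The labels do not say that the libraries came from separate animals, so p-values measure the spread between libraries.

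Of the 33 member rows, 29 had enough counts to be tested. PSMA8 and PSMB11, the testis and thymus forms of core subunits, and a second row named PSMA5 had 0 counts in each of the 6 libraries. PSMC3IP, which encodes a partner protein of meiotic recombination and no proteasome part, had 18 counts in all and was not tested. The 29 tested members comprised 10 core subunits, 7 base subunits, 6 lid subunits, 4 assembly chaperones and 2 alternative activators. Of the member rows, 6, PSMC3IP among them, lay on chromosome 12, which holds 4.52% of the table's rows. Another 5 lay on chromosome 7, which holds 6.52%.

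The breed comparison asks which of these genes stand at another level in Wei loin than in Yorkshire loin. By the quasi-likelihood test of edgeR, with a Benjamini-Hochberg threshold of 0.05, 0 of 29 members were called, where 5.08% of the 13209 genes tested were, 2.73% as higher and 2.35% as lower in Wei. The lowest adjusted p was 0.0569, for PSMD4. At an unadjusted p under 0.05, 7 members were higher in Wei, or 24.1% of those tested, against 11.4% of all genes, and 1 was lower, against 11.8% of all genes and 23.3% in either direction. The 7 were all subunits of the cap, namely PSMD4, PSMD2 and PSMC5 of the base and PSMD7, PSMD12, PSMD11 and PSMD14 of the lid. The 1 lower gene was the assembly chaperone PSMG1. The same 7 genes, and PSMG1, were also the members whose Wei and Yorkshire values did not overlap, where 29.6% of all genes did not overlap, 14.3% with all Wei values above all Yorkshire values and 15.3% with all Wei values below. Taken in either direction, the members' shares by unadjusted p and by lack of overlap were both close to those of all genes. DESeq2 called 5 members, PSMD4, PSMD2, PSMD7, PSMC5 and PSMD12, all higher in Wei, or 17.2% of the members, where it called 9.78% of all genes, 5.40% as higher and 4.38% as lower in Wei. Of the members limma voom called 0, and of all genes 4.88%.

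The medians of the parts differed. The median log2 fold change, Wei over Yorkshire, was 0.38 for the lid, 0.30 for the base and 0.15 for the core, against -0.02 for all genes tested. Within the core it was 0.006 for the alpha ring and 0.17 for the beta ring. Within the base it was 0.22 for the 5 ATPases and 0.54 for PSMD2 and PSMD4. Over all 29 members it was 0.18, or 1.14-fold, and 23 had a positive value, where 47.8% of all genes did. Of the 13 cap subunits 12 had a positive value and 7 an unadjusted p under 0.05 by edgeR. Of the 10 core subunits 8 had a positive value and 0 an unadjusted p under 0.05. Of all genes 23.3% had an unadjusted p under 0.05, and 11.4% one with a higher level in Wei. With library size alone as the scaling, 11 cap and 6 core subunits had a positive value. Then 5 cap subunits had an unadjusted p under 0.05, where 20.3% of all genes had one in either direction. With each library left out in turn, 6 or 7 of the 13 cap subunits were higher in Wei at an unadjusted p under 0.05. In these fits 0 of the 10 core subunits were at that level in either direction, where 17.9% to 21.8% of all genes were. The difference between cap and core was not tested. The base median was 0.17 without Yorkshire replicate 1. The core median was 0.08 without Yorkshire replicate 3 and 0.23 without Yorkshire replicate 2.

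**Figure D1:**
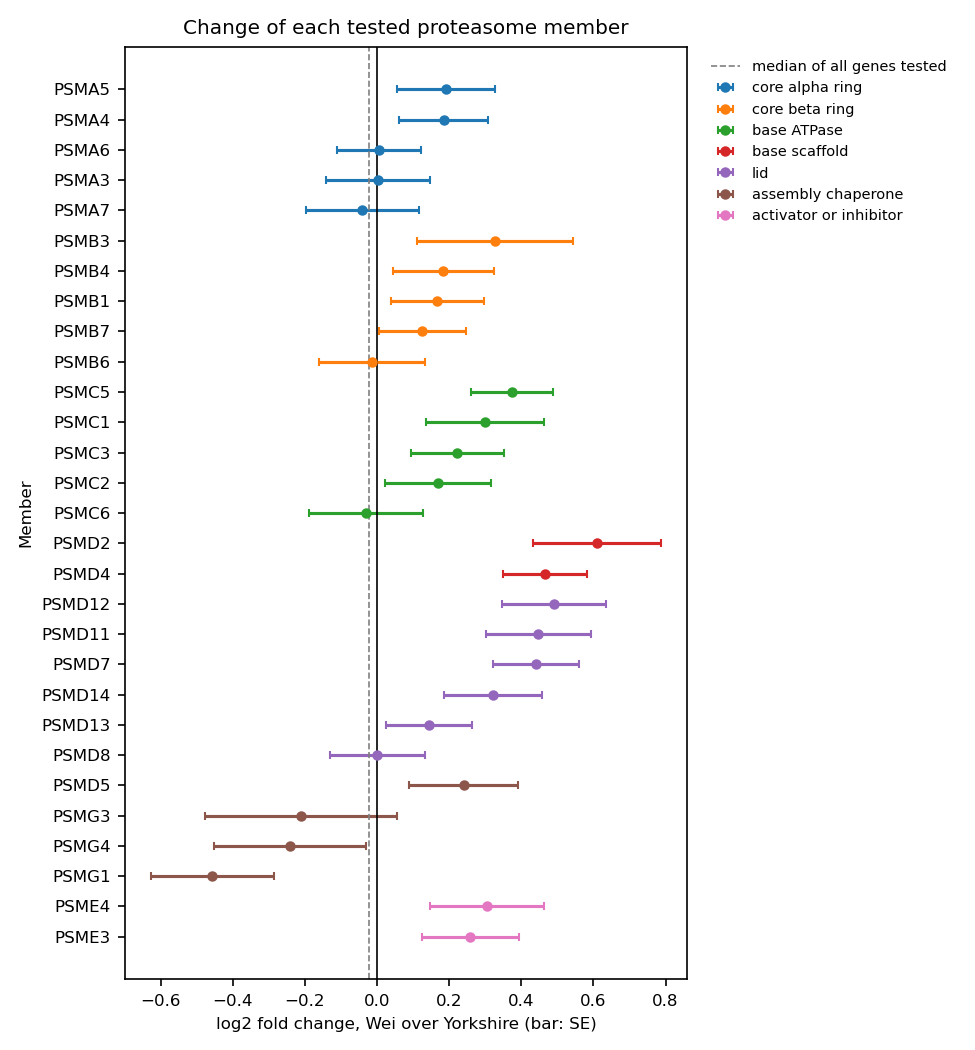
Log2 fold change of each tested member, Wei over Yorkshire (x axis, bars are the SE from edgeR), with members down the page by class (n = 3 libraries per breed). PSMD2 lies farthest to the right at 0.61 and PSMG1 farthest to the left at -0.46, and the dashed line is the median of all genes tested.

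In the base, the 2 subunits that bind ubiquitin or its carriers had the largest values. PSMD2, the scaffold that docks shuttle proteins and deubiquitinases (ENSSSCG00000023998, Sscrofa10.2 chromosome 13, 131627272 to 131639170), had 443, 317 and 283 CPM in Wei replicates 1, 2 and 3, against 216, 231 and 236 CPM in Yorkshire replicates 1, 2 and 3. The Wei values lay above the Yorkshire values, with Wei replicate 1 well above the other two. This was a log2 fold change of 0.61 ± 0.18 (SE), with an adjusted p of 0.088 by edgeR and 0.0254 by DESeq2, and of 0.40 without Wei replicate 1. Wei replicate 1 is also the library with the lowest ACTA1 share. With mitochondrial genes and ACTA1 left out of the fit, the log2 fold change of PSMD2 was 0.62. That fit leaves the counts of PSMD2 as they were, so it cannot show the part of the low share itself in the result. This part was not tested.

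PSMD4, a ubiquitin receptor that sits between base and lid (ENSSSCG00000006628, chromosome 4, 107246979 to 107257425), had 141, 134 and 132 CPM in Wei, against 95.2, 106 and 93.5 CPM in Yorkshire. The breeds did not overlap and the spread within each was small, at 136 ± 4.74 CPM in Wei and 98.2 ± 6.82 CPM in Yorkshire (SD, n = 3 each). The log2 fold change of 0.47 ± 0.12 had an adjusted p of 0.0569 by edgeR and of 0.0147 by DESeq2. Leaving out a library gave log2 fold changes between 0.44 and 0.52.

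The members include 5 ATPases of the ring, and PSMC4 has no member row. PSMC5 (ENSSSCG00000017287, chromosome 12, 15090983 to 15096597) had 256, 239 and 251 CPM in Wei, against 191, 199 and 185 CPM in Yorkshire. Its groups did not overlap, and the log2 fold change was 0.38 ± 0.11, with an adjusted p of 0.0958 by edgeR and 0.0445 by DESeq2. The 4 other ATPases overlapped between the breeds. PSMC1, PSMC3 and PSMC2 had log2 fold changes of 0.30 ± 0.16, 0.22 ± 0.13 and 0.17 ± 0.15. PSMC6 stood at 91.1 ± 12.3 CPM in Wei and 93.1 ± 14.0 CPM in Yorkshire, a log2 fold change of -0.03 ± 0.16. The ATPases share a ring with a single copy of each, and their log2 fold changes were spread from -0.03 for PSMC6 to 0.38 for PSMC5.

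In the lid, PSMD7 (ENSSSCG00000030587, unplaced scaffold GL892841.1, 127720 to 137719), the structural partner of the deubiquitinase, had 197, 173 and 192 CPM in Wei, against 132, 148 and 134 CPM in Yorkshire. The lowest Wei value exceeded the highest Yorkshire value, and the log2 fold change was 0.44 ± 0.12, with an adjusted p of 0.0745 by edgeR and 0.0271 by DESeq2.

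PSMD12, a curved scaffold subunit of the lid (ENSSSCG00000017273, chromosome 12, 14069018 to 14095603), had 134, 132 and 126 CPM in Wei, against 82.2, 111 and 85.6 CPM in Yorkshire. All Wei values were higher, and Yorkshire replicate 2 came closest to them. Its log2 fold change was 0.49 ± 0.14, with an adjusted p of 0.0897 by edgeR and 0.0461 by DESeq2.

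PSMD11, which clamps the lid to the core (ENSSSCG00000017731, chromosome 12, 44259356 to 44287880), had 320, 257 and 230 CPM in Wei, against 194, 198 and 199 CPM in Yorkshire. The Yorkshire libraries were close to each other, while the Wei libraries were spread and led by replicate 1, as for PSMD2. For PSMD11 the log2 fold change was 0.45 ± 0.15, with an adjusted p of 0.113 by edgeR and 0.0681 by DESeq2, and it was 0.31 without Wei replicate 1.

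PSMD14, the deubiquitinase that cuts the ubiquitin chain from the substrate (ENSSSCG00000015892, chromosome 15, 75640607 to 75707668), had 69.6, 65.9 and 64.9 CPM in Wei, against 46.1, 61.3 and 53.0 CPM in Yorkshire. The groups did not overlap, but Yorkshire replicate 2 came within a few CPM of the lowest Wei library. Its log2 fold change was 0.32 ± 0.14, with an adjusted p of 0.202 by edgeR. The other lid subunits overlapped between the breeds: PSMD13 had a log2 fold change of 0.14 ± 0.12. PSMD8 stood at 77.1 ± 7.34 CPM in Wei and 77.0 ± 7.09 CPM in Yorkshire, a log2 fold change of 0.0007 ± 0.131.

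**Figure D2:**
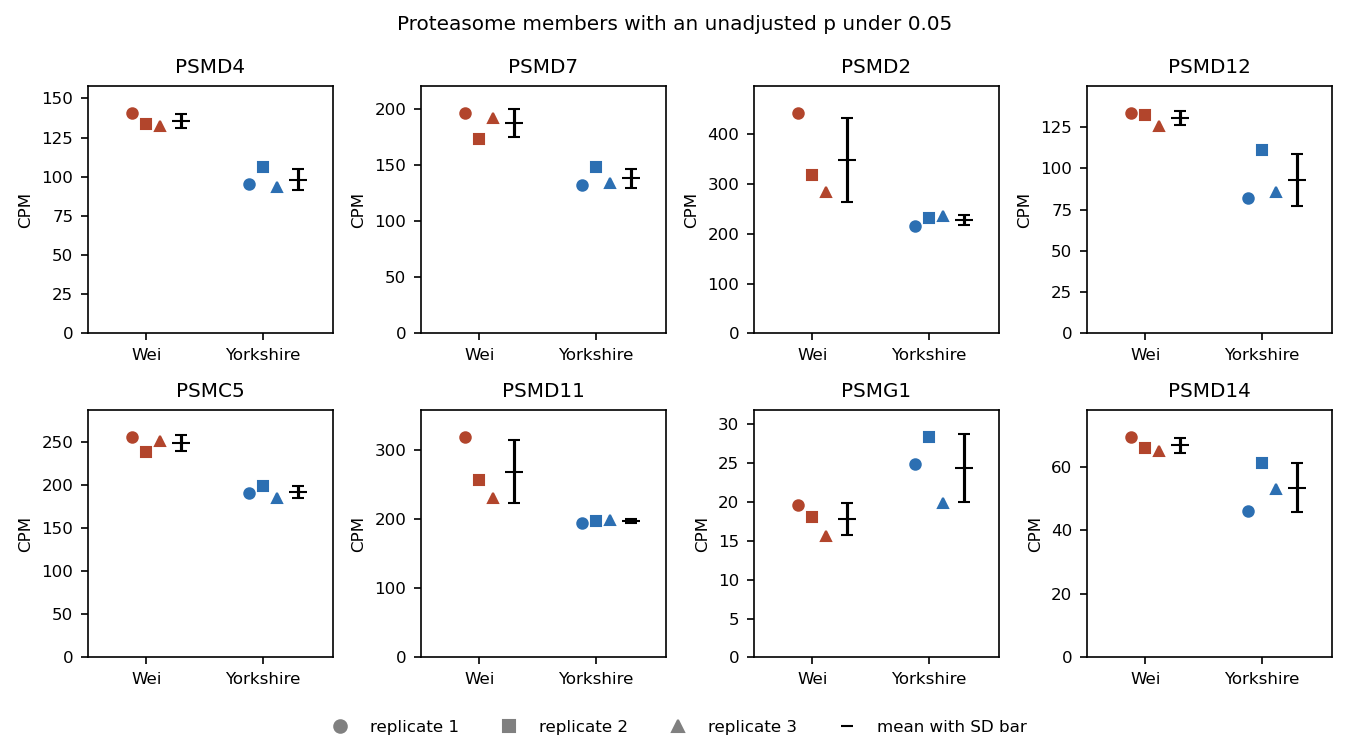
CPM after TMM scaling of the 8 members with an unadjusted p under 0.05, with 1 point per library, the mean and its SD (n = 3 per breed). The Wei points lie above the Yorkshire points in 7 panels and below them for PSMG1, and Wei replicate 1 stands out for PSMD2 at 443 CPM and PSMD11 at 320 CPM.

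The core was nearer to equal between the breeds. Of its 10 tested subunits none had groups that did not overlap, where 29.6% of all genes did not overlap. The adjusted p ran from 0.395 to 0.995 in edgeR's test. In the alpha ring, PSMA4 (ENSSSCG00000001754, chromosome 7, 52928637 to 52937456) had the lowest p, with 91.8, 79.9 and 80.9 CPM in Wei against 70.8, 81.2 and 70.3 CPM in Yorkshire. Yorkshire replicate 2 lay among the Wei values, and the log2 fold change was 0.18 ± 0.12. PSMA3 (ENSSSCG00000005072, chromosome 1, 208247111 to 208275880), the alpha subunit with the most CPM, had 116, 146 and 127 CPM in Wei against 113, 142 and 134 CPM in Yorkshire. The breeds covered the same range, with a log2 fold change of 0.002 ± 0.143 whose sign turned with library size alone as the scaling and with a filter of 1 CPM. PSMA5 had a log2 fold change of 0.19 ± 0.14, PSMA6 one of 0.006 ± 0.116 and PSMA7 one of -0.04 ± 0.16.

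In the beta ring, PSMB6 (ENSSSCG00000017913, chromosome 12, 54317037 to 54319097), which carries the caspase-like activity, had 111, 115 and 134 CPM in Wei against 124, 136 and 102 CPM in Yorkshire. The groups overlapped in full, with a log2 fold change of -0.01 ± 0.15. PSMB7, which carries the trypsin-like activity, stood at 74.2 ± 2.94 CPM in Wei and 68.0 ± 6.23 CPM in Yorkshire, a log2 fold change of 0.13 ± 0.12. The structural subunits PSMB4 and PSMB1 had log2 fold changes of 0.18 ± 0.14 and 0.17 ± 0.13, and PSMB2 has no member row. PSMB3 (ENSSSCG00000024390, unplaced scaffold GL896426.1, 498 to 4015) had the lowest p of the ring, with 5.15, 4.42 and 4.84 CPM in Wei against 4.53, 3.98 and 2.99 CPM in Yorkshire. Wei replicate 2 lay below Yorkshire replicate 1, and the log2 fold change was 0.33 ± 0.22, or 0.18 without Yorkshire replicate 3. The standard errors of the core subunits, 0.12 to 0.22, were like those of the cap subunits, 0.11 to 0.18. A missed threshold does not show that core levels were equal.

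Library by library, the parts of the particle moved partly together. Each tested member was set on a log2 scale against its mean over the 6 libraries, and the median was taken over each part. For the base these medians were 0.23, 0.16 and 0.02 in Wei replicates 1, 2 and 3, against -0.21, -0.06 and -0.22 in Yorkshire replicates 1, 2 and 3. For the lid they were 0.26, 0.14 and 0.06 in Wei, against -0.26, 0.03 and -0.19 in Yorkshire. For the core they were 0.13, 0.06 and 0.02 in Wei, against -0.09, 0.12 and -0.20 in Yorkshire, so Yorkshire replicate 2 lay among the Wei libraries. Base, lid and core had the same order of Wei libraries, replicate 1 first, and Yorkshire replicate 2 was the highest Yorkshire library in each. Wei replicate 1 was the highest library for 10 of 13 cap subunits and for 6 of 10 core subunits. Yorkshire replicate 1 was the lowest for 7 of 13 cap subunits and 2 of 10 core subunits, and Yorkshire replicate 3, the library rich in immune markers, for 5 of 13 cap subunits and 7 of 10 core subunits.

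**Figure D3:**
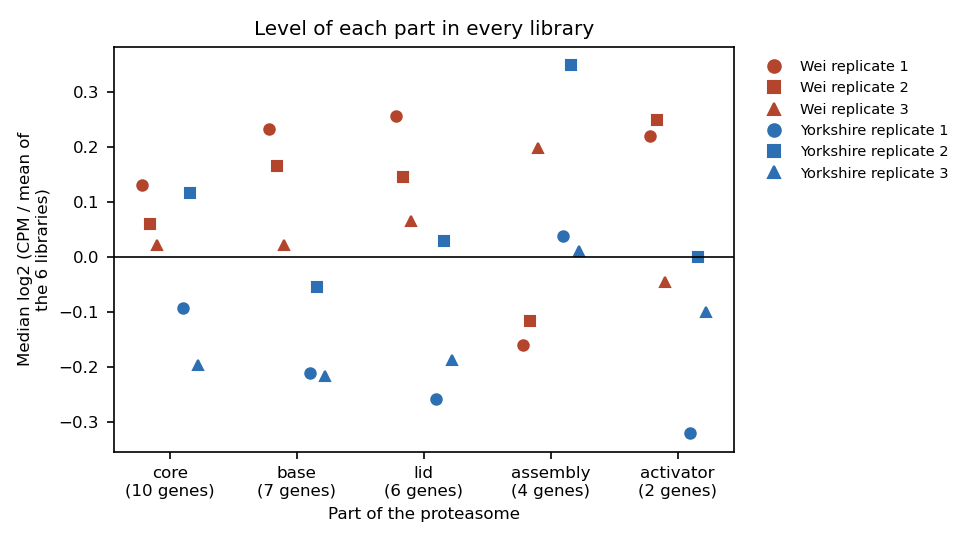
Median over the tested members of each part of log2 CPM relative to the mean of the 6 libraries (y axis), with 1 point per library and the number of members on the x axis. The Wei points of the base, 0.02 to 0.23, lie above the Yorkshire points, -0.22 to -0.06, while for the core Yorkshire replicate 2 at 0.12 lies among the Wei points.

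The summed CPM of the 13 cap subunits over that of the 10 core subunits, a description of the members' relative share, was 2.91, 2.62 and 2.49 in Wei against 2.17, 2.12 and 2.32 in Yorkshire. It averaged 2.68 ± 0.22 in Wei and 2.20 ± 0.11 in Yorkshire (SD, n = 3 each). The lowest Wei library was above the highest Yorkshire library. In the deposited FPKM values, which are per length, the same ratio was 1.75, 1.61 and 1.49 in Wei against 1.30, 1.29 and 1.45 in Yorkshire, again without overlap. Pooling base and lid as the cap, and this ratio, were not among the results planned. The ratio is built from the same libraries and values as the single members, none of which passed edgeR's test, and it is no separate evidence. All 33 member rows together took 0.328% ± 0.056 of a library's counts in Wei and 0.275% ± 0.029 in Yorkshire (SD, n = 3 each), with overlap between the breeds.

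The assembly chaperones differed in sign among themselves. PSMG1, which with a partner builds the alpha ring (ENSSSCG00000030314, chromosome 13, 212903257 to 212916133), had 19.6, 18.1 and 15.6 CPM in Wei, against 24.9, 28.4 and 19.8 CPM in Yorkshire. All Wei values lay below all Yorkshire values, but Wei replicate 1 and Yorkshire replicate 3 almost met. PSMG1 had a log2 fold change of -0.46 ± 0.17, with an adjusted p of 0.158 by edgeR, and with library size alone its unadjusted p was above 0.05. PSMG3 and PSMG4, which also act on the alpha ring, had log2 fold changes of -0.21 ± 0.27 and -0.24 ± 0.21. PSMD5, a chaperone of the base, had one of 0.24 ± 0.15. PSMG3 had the lowest count of a tested member in any library, 48.

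Both alternative activators had positive values that overlapped between the breeds. PSME4, a large cap that opens the core without ATP (ENSSSCG00000008412, chromosome 3, 92361674 to 92489028), had 337, 360 and 277 CPM in Wei, against 221, 288 and 279 CPM in Yorkshire. Wei replicate 3 fell among the Yorkshire values, and the log2 fold change was 0.30 ± 0.16, with an adjusted p of 0.288 by edgeR. PSME3, the nuclear activator (ENSSSCG00000017385, chromosome 12, 20244728 to 20250334), had 32.1, 31.3 and 27.0 CPM in Wei, against 23.1, 27.6 and 24.8 CPM in Yorkshire. Only Wei replicate 3 lay within the Yorkshire range, and the log2 fold change was 0.26 ± 0.13, with an adjusted p of 0.286 by edgeR.

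Several subunits have rows without a symbol in the table and so lay outside the members. By gene ID 5 such rows were found, and by their enzyme descriptions another 4. The lid subunit PSMD6 had 47.4, 41.8 and 38.1 CPM in Wei, against 32.8, 33.3 and 32.3 CPM in Yorkshire. The lid subunit PSMD3 had 145, 133 and 121 CPM in Wei, against 102, 111 and 102 CPM in Yorkshire. Neither overlapped between the breeds, with log2 fold changes of 0.37 ± 0.13 and 0.34 ± 0.12 and adjusted p of 0.123 and 0.143 by edgeR. PSMD1, the other scaffold of the base, had a log2 fold change of 0.23 ± 0.16. The row described as subunit beta 5, the chymotrypsin-like PSMB5, stood at 102 ± 1.62 CPM in Wei and 91.3 ± 9.27 CPM in Yorkshire, a log2 fold change of 0.16 ± 0.12. PSMA1 and the row described as subunit alpha 2 (PSMA2) had log2 fold changes of -0.02 ± 0.14 and -0.12 ± 0.12. With these rows the lid had 6 of 8 subunits at an unadjusted p under 0.05 and the core still 0 of 13, where 23.3% of all genes were in either direction and 11.4% were higher in Wei. The medians were 0.36 for the lid, 0.26 for the base and 0.13 for the core, against -0.02 for all genes. A pair of rows on chromosome 17 is described as the proteasome inhibitor PI31 (PSMF1), at 38667378 to 38711350 and 38886207 to 38930175, with log2 fold changes of 0.18 ± 0.13 and 0.16 ± 0.14. PSMD5 also has a second row, at 0.18 ± 0.18. Reads of such paired rows may be split between them, so their levels are uncertain.

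Levels between members were compared in FPKM. Of the tested members PSMD11 had the highest mean in each breed, 189 ± 52.3 FPKM in Wei and 139 ± 10.3 FPKM in Yorkshire (SD, n = 3 each). PSMB6 came next, at 131 ± 6.52 FPKM in Wei and 134 ± 16.3 FPKM in Yorkshire, and in Yorkshire the difference between these subunits was within their spread. The next 4 members were PSMA6, PSMD4, PSMD2 and PSMD7, in an order that depended on the breed. In Wei they lay between 111 and 119 FPKM, within their spread. In Yorkshire PSMA6 stood at 112 ± 8.97 FPKM, and PSMD4, PSMD7 and PSMD2 at 85.9, 83.1 and 78.0 FPKM, close to each other. Over the 6 libraries, means within the alpha ring ran from 23.2 FPKM for PSMA4 to 111 FPKM for PSMA6, although each ring holds these subunits in equal number. In the beta ring PSMB3 stood at 13.3 FPKM and the other 4 tested subunits between 68.5 and 133 FPKM. The medians of the parts were close to each other, at 61.7 FPKM for the core, 61.7 for the base and 62.6 for the lid, while the chaperones had a median of 15.8 FPKM. FPKM depends on the length of each gene model in this annotation, and PSMB3 lies on an unplaced scaffold. The part of the gene models in these levels was not tested.

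**Figure D4:**
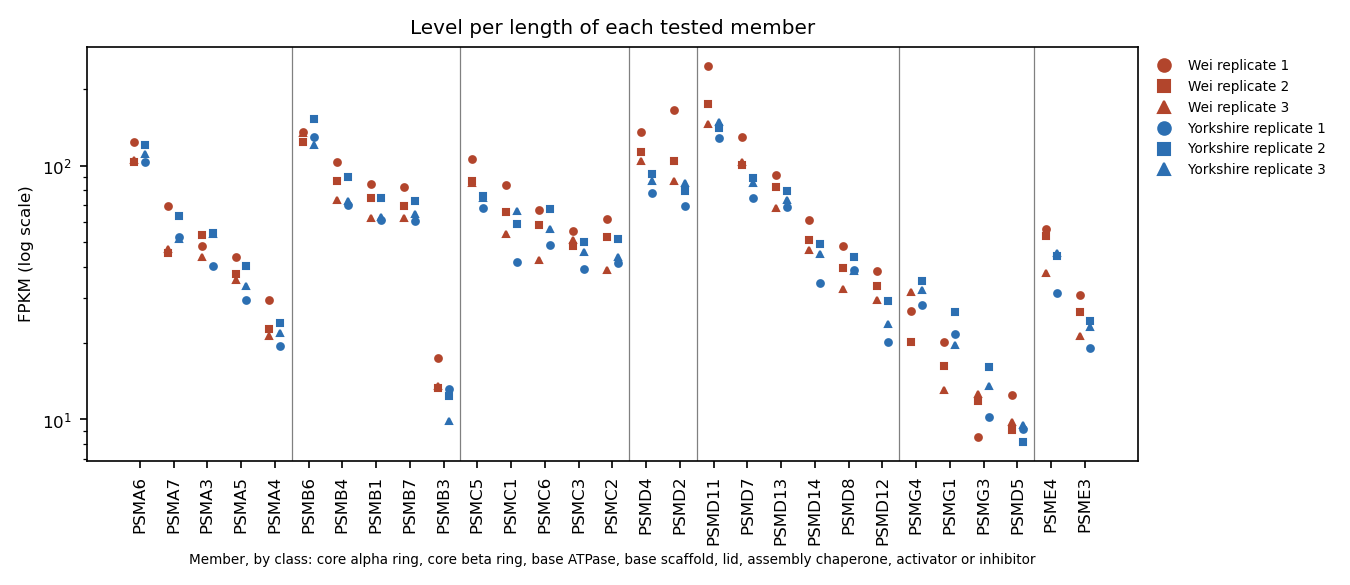
Deposited FPKM (y axis, log scale) of each tested member in every library, with members grouped by class along the x axis. PSMD11 has the highest mean over the 6 libraries at 164 FPKM, PSMB3 stands far below the other beta subunits at 13.3 FPKM, and the chaperones lie lowest as a class.

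Genes that control or serve the proteasome included ones that passed the test. Their lists were chosen with earlier results of these data known. Their shares beside those of all genes are therefore descriptions and no evidence about the lists as sets. NFE2L1, the activator of proteasome subunit genes (ENSSSCG00000017525, chromosome 12, 24300468 to 24308029), had 225, 199 and 145 CPM in Wei, against 92.6, 96.7 and 84.9 CPM in Yorkshire. The groups were well apart, although Wei ranged widely. NFE2L1 rose in Wei by a log2 fold change of 1.05 ± 0.17, with an adjusted p of 0.0197 by edgeR. It missed the threshold without Yorkshire replicate 1, 2 or 3, at an adjusted p of 0.0523, 0.0785 and 0.0719, with log2 fold changes of 1.06, 1.09 and 1.01.

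NFE2L2, the related factor of the oxidative stress response (ENSSSCG00000015987, chromosome 15, 92433776 to 92437942), had 161, 137 and 139 CPM in Wei, against 78.9, 72.4 and 77.9 CPM in Yorkshire. Each Wei value lay far above all Yorkshire values, and it rose by a log2 fold change of 0.93 ± 0.12, with an adjusted p of 0.0108 by edgeR, or 0.059 without Yorkshire replicate 2. Of the 5 tested genes of this control list, 2 rose and 0 fell, where 2.73% of all genes were called higher and 2.35% lower. DDI2, the protease that cuts NFE2L1 into its active form, stood at 26.2 ± 8.30 CPM in Wei and 13.2 ± 4.19 CPM in Yorkshire, a log2 fold change of 0.98 ± 0.28, with an adjusted p of 0.0848 by edgeR. NGLY1, which removes the sugars of NFE2L1, had a log2 fold change of -0.13 ± 0.15, and MAFK, a DNA-binding partner, one of 0.21 ± 0.38.

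Of 18 tested partners of the proteasome, 1 rose and 0 fell, where 2.73% of all genes were called higher and 2.35% lower. This list was also chosen with earlier results of these data known, so its shares are only a description. ZFAND5, a zinc finger protein that binds ubiquitin chains and stimulates the proteasome and is linked to muscle wasting in mice (ENSSSCG00000030268, unplaced scaffold JH118705.1, 4157 to 12738), had 472, 639 and 609 CPM in Wei, against 196, 171 and 153 CPM in Yorkshire. Each Wei library lay far above the highest Yorkshire library. ZFAND5 rose in Wei by a log2 fold change of 1.73 ± 0.17, with an adjusted p of 0.005 by edgeR, and with a library left out this p stayed between 0.00857 and 0.0339. RAD23B, a shuttle that brings ubiquitinated proteins to the cap, had 483, 396 and 468 CPM in Wei, against 341, 298 and 322 CPM in Yorkshire. Its log2 fold change of 0.49 ± 0.13 had an adjusted p of 0.0766 by edgeR and 0.0184 by DESeq2. In all, 7 of the 18 partners were at an unadjusted p under 0.05, all higher in Wei, where 11.4% of all genes were, and 17 had a positive value, where 47.8% of all genes did. Their median log2 fold change was 0.29, or 0.19 without Yorkshire replicate 3, against -0.02 for all genes. The other 5 at that level were the ligase UBE3C, the shuttle UBQLN1, the adaptor KIAA0368 (Ecm29 in yeast), the deubiquitinase UCHL5 and the ubiquitin-activating enzyme UBA1, with log2 fold changes from 0.29 for UBA1 to 0.50 for UBQLN1. The assembly factor POMP had only 201 counts in all and a log2 fold change of 0.29 ± 0.30.

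**Figure D5:**
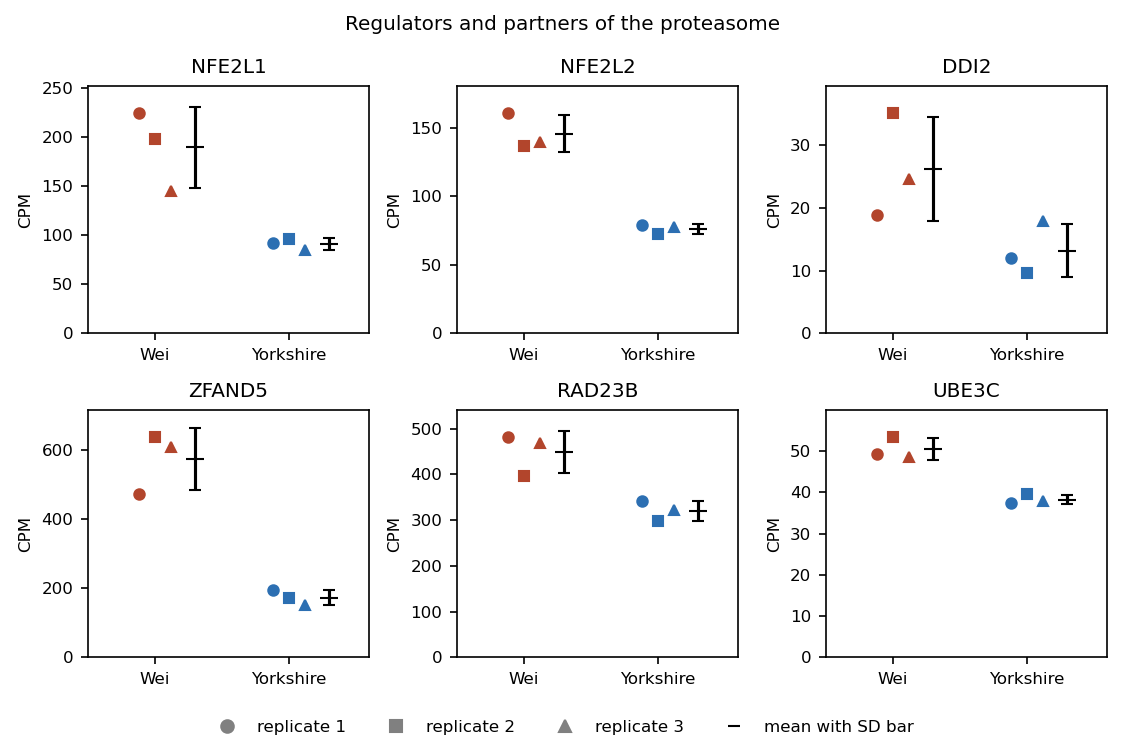
CPM after TMM scaling of 6 genes that control or serve the proteasome, with 1 point per library, the mean and its SD (n = 3 per breed). The lists were chosen with earlier results of these data known. The 6 were taken from the genes of these lists whose Wei values all lay above the Yorkshire values. Such genes were 3 of the 5 tested control genes and 7 of the 18 tested partners, where 14.3% of all genes were. The Wei points therefore lie above the Yorkshire points in each panel, with ZFAND5 at 472 to 639 CPM in Wei against 153 to 196 CPM in Yorkshire.

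Of the ubiquitin precursor genes, 2 are given. RPS27A, which encodes ubiquitin fused to a ribosomal protein (chromosome 3, 90773817 to 90776397), had 214, 216 and 252 CPM in Wei, against 265, 367 and 342 CPM in Yorkshire. Its Wei values lay below all Yorkshire values, and the log2 fold change was -0.51 ± 0.16, with an adjusted p of 0.0981 by edgeR. UBB had a log2 fold change of 0.20 ± 0.18, so neither passed the test.

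The immunoproteasome, whose subunits replace those of the core in immune and interferon-treated cells, had the opposite sign from the cap. It has 6 tested rows, because PSMB8 and PSMB9 each have a second row on chromosome 7, among which reads may be split. None passed the test, and all 6 had a negative log2 fold change, with a median of -1.17. Without Yorkshire replicate 3 the median was -0.23, and 5 of the 6 values were negative. PSMB8 (ENSSSCG00000028872, chromosome 7, 29425067 to 29428872) had 2.96, 2.28 and 2.99 CPM in Wei, against 3.36, 3.37 and 11.5 CPM in Yorkshire replicates 1, 2 and 3. PSME2 (chromosome 7, 80425840 to 80429278) had 15.3, 14.4 and 18.7 CPM in Wei, against 17.6, 20.7 and 33.3 CPM in Yorkshire. The high value in both was that of Yorkshire replicate 3, the library with 41.9 CPM of lymphocyte markers and 174 CPM of macrophage markers. For PSMB8 the log2 fold change was -1.16 ± 0.49, with an adjusted p of 0.199 by edgeR, and it was -0.29 without Yorkshire replicate 3. That of PSME2 was -0.57 ± 0.24, with an adjusted p of 0.206, and it was -0.24 without that library.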

How the data were processed

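Per the file headers, the authors deposited a table of 25322 rows, 1 per Ensembl gene, that holds the raw count and the FPKM of every library. The tools named, per the submitters' processing notes, are TopHat2 2.0.9, CASAVA 1.7 and edgeR, and the build is Sscrofa10.2. How counting was done, and whether by strand, is not given in the sources used here. The deposited FPKM values were used only for levels between genes: over 4854 genes with high counts, count over FPKM was a constant per gene times a constant per library.

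After filterByExpr with a minimum count of 10, TMM factors were computed and breed, the only term, was tested with glmQLFit and glmQLFTest of edgeR 4.0.16 under R 4.3.3. P-values were adjusted by Benjamini-Hochberg over all 13209 genes, with a threshold of 0.05. Fold changes carry no prior count, and each SE is the size of the log2 fold change divided by the root of its F statistic. Biological variation between libraries was 21.8% as a coefficient. The procedure was tested on simulated counts with changes larger than that of any tested member, so this does not speak to changes of the members' size. No 2 libraries agreed within sampling noise. DESeq2 1.42.0, limma 3.58.1 (voom), other scalings and filters, a replicate block and leaving out each library were alternatives. Figures used matplotlib 3.10.9.

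Named members are those at an unadjusted p under 0.05, and in each class the one with the lowest p and the one with the most CPM. Of each other list the 2 with the lowest p are named. PSMC1, PSMC2, PSMC3, PSMC6, PSMD13, PSMD8, the remaining core, chaperone and control genes, rows without a symbol, POMP and the 5 partners beside ZFAND5 and RAD23B were added after their values were seen. The members and lists were chosen with earlier results of these data known. Some genes of the ubiquitin list are not reported here.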

Additional observations from a re-analysis of the deposited data

How the results depend on the processing

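The added alternatives, chosen after seeing the data, were leaving out mitochondrial genes and ACTA1, adding rows by enzyme description, and list medians under each alternative. DESeq2 called 1291 genes in place of 671, with 5 members and 3 partners higher in Wei; the cause was not tested. The other alternatives with all libraries called no member. Leaving out 1 library left 60 to 394 genes, 0 members and 0 to 2 genes of the control list higher, with fewer samples in each fit. The base median then ranged from 0.17 to 0.37. Near 0, signs turned: PSMA3 was at -0.028 with library size alone and -0.008 with the 1 CPM filter, and ranged from -0.089 to 0.085 with 1 library left out, and PSMB6 ranged from -0.12 to 0.080. The replicate block gave 477 genes, 0 members and medians of 0.31 for the base, 0.38 for the lid and 0.15 for the core. Libraries with the same number had deviations that correlated at 0.156, -0.0224 and 0.0198, and they were treated as unpaired. No scaling shifted the median over all genes by as much as 0.1. Low counts limit PSMB3, at 68 to 116 per library, and PSMG3, at 48 to 128 per library.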
